A study of Mus musculus with 9 samples.

Results

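Stearic acid was compared with palmitic acid in β-TC6 cells, an insulin-secreting mouse line grown from an insulinoma of transgenic mice. The comparison used 6 of the 9 libraries of the study, 3 from cells given stearic acid, a saturated fatty acid with 18 carbons, and 3 from cells given palmitic acid, which has 16. Each acid was given at 400 µmol/L with 1.3% bovine serum albumin for 24 h. The other 3 libraries came from untreated control cells, and the protocol text, written for the acids, does not settle whether these were given albumin. Dose, time and albumin were the same for the 2 acids, so they form 1 matched pair of compounds whose chains differ in length and carry no double bond. The control libraries took no part in choosing loci or in estimating the spread and are given beside the acids for level. Total RNA depleted of ribosomal RNA was sequenced from directional libraries. No label names the culture behind a replicate, so the p-values rest on the spread between these libraries, which may be technical. β-TC6 is a single tumour line, and the table measures long non-coding RNAs (lncRNAs), not the coding genes beside them.

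Palmitic acid is the usual end product of fatty acid synthesis, and cells lengthen it to stearic acid, which stearoyl-CoA desaturases turn into oleic acid. Saturated fatty acids in excess disturb insulin secretion, load the endoplasmic reticulum and can kill β cells. lncRNAs are transcripts that encode no long protein. Some, such as Malat1 and Miat, stay in the nucleus near splicing factors, and many are transcribed from the opposite strand of a coding gene or away from its promoter.

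The unit was the locus, the sum of the transcripts that the deposited table places under a single locus number. The table holds 15589 lncRNA transcripts at 9635 loci, of which 6998 had a count in an acid library and 2834 passed the filter on low counts and were tested. lncRNA counts summed to 1948925, 1537431 and 2418397 in the stearic acid libraries, to 2755266, 2737777 and 2484333 in the palmitic acid libraries, and to 1839123, 2103773 and 2870275 in the control libraries. A floor of 3 counts corresponded to 1.10 to 2.02 CPM (counts per 1 000 000 of the scaled library) in the acid libraries and covers counting error only. Stearic acid replicate 2 stood apart. It had the lowest total and a score of 25.6 on the first principal component, where the other 5 acid libraries lay between -10.3 and -0.81. A locus over the immunoglobulin gene segment Igkv13-57-2 (XLOC_124611) took 30.1% of its counts, against 17.01% and 21.1% in the other stearic acid libraries. Results are given without this library where that changes the call or moves a called value by over 1.5-fold. Loci at 25 of 30 β-cell genes were in the table, and their summed level was 10853 to 11386 CPM with stearic acid and 12357 to 12692 CPM with palmitic acid. Loci at duct, fibroblast and endothelial genes summed to at most 3.29 CPM in any acid library. The endothelial locus was at 0 in all 6. Loci at α-cell genes summed to 89.7 to 98.3 CPM with stearic acid and 84.0 to 101 CPM with palmitic acid. In that order, macrophage loci summed to 73.4 to 227 and 147 to 206 CPM, and acinar loci to 12.2 to 20.2 and 13.2 to 15.9 CPM. Loci at δ-cell and pancreatic polypeptide cell genes summed to at most 5.85 and 5.38 CPM. These are lncRNAs beside marker genes and not the markers, so they bear on the labelled cell type only indirectly.

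Among the loci called different between the acids, Miat was the only one with a gene name of its own. It is a nuclear lncRNA that carries repeats of a splicing branch-point motif and binds splicing factor 1 in mice. The stretch shown is of the longest Miat transcript of the GENCODE mouse release 21 annotation (GRCm38, minus strand of chromosome 5), bases 4873 to 5072 of 9163, with the repeat ACTAAC in capitals. It holds 4 of the 11 repeats of that transcript, which come to 1.20 per kb. Of 9539 annotated lncRNA transcripts of at least 1 kb, 0.545% had as many or more per kb, and the median was 0. Miat-201 also held 11 repeats, and the shorter Miat-202, Miat-203, Miat-204 and Miat-206 held 0. No sequence of the assembled Miat transcripts was available, so their repeats were not counted.
Miat-205: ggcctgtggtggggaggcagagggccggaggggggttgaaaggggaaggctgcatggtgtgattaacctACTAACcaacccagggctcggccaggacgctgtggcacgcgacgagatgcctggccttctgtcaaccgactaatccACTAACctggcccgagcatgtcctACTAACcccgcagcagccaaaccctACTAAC

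At 2 other called loci, an unnamed lncRNA starts on the opposite strand from a coding gene and runs away from it. The assembled lncRNAs are not in the annotation used, so the windows printed are those of the coding neighbours, Dhx40 and Gstp3 (RefSeq, GRCm38.p6, 250 bases before to 50 after the gene start, read on the gene's minus strand). The Dhx40 window is chr11:86807611-86807910 and the Gstp3 window chr19:4059398-4059697. Capitals mark matches, on either strand, to the core of the cAMP response element TGACG, the antioxidant response core TGACNNNGC, the C/EBP-ATF response element TTGCATCA and the E-box CACGTG.
Dhx40: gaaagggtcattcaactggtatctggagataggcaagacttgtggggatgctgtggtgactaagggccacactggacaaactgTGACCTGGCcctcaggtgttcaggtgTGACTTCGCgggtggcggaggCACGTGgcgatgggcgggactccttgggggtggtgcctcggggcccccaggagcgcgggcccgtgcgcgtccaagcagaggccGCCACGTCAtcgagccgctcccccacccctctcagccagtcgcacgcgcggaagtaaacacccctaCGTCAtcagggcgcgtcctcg
Gstp3: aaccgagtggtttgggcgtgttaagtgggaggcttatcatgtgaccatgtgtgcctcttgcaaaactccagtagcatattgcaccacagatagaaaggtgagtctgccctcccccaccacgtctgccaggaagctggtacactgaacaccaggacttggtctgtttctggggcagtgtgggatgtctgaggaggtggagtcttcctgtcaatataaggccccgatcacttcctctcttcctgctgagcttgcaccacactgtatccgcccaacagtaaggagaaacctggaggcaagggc
The Dhx40 window held 2, 3, 0 and 1 matches to these 4 motifs in that order, with 1 TGACG inside a TGACNNNGC match. The Gstp3 window held 0 matches to each of the 4 motifs. Of 32851 mouse promoters of the same length, 20.8% held TGACG, 12.4% TGACNNNGC, 0.895% TTGCATCA and 7.15% CACGTG. A match is a description of these letters, not evidence of binding.

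Few lncRNA loci were called different between stearic and palmitic acid. Of 2834 loci, 4 were called (0.141%) by edgeR's quasi-likelihood test at a Benjamini-Hochberg adjusted p under 0.05. Stearic acid was higher at 3 (0.106%): Miat, the locus near Dhx40 and the locus near Gstp3. It was lower at 1 (0.0353%), which is antisense to Mafa. At an unadjusted p under 0.05 there were 207 loci (7.3%). The CPM values of the groups did not overlap at 377 loci (13.3%), of which stearic acid was higher at 192 (6.77%) and lower at 185 (6.53%). Across all loci 1463 differences were positive and 1371 negative, with a median log2 difference of 0.01 and quartiles of -0.22 and 0.23. The scatter of difference against level shows the calls among loci of middle and high level.

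**Figure D1:**
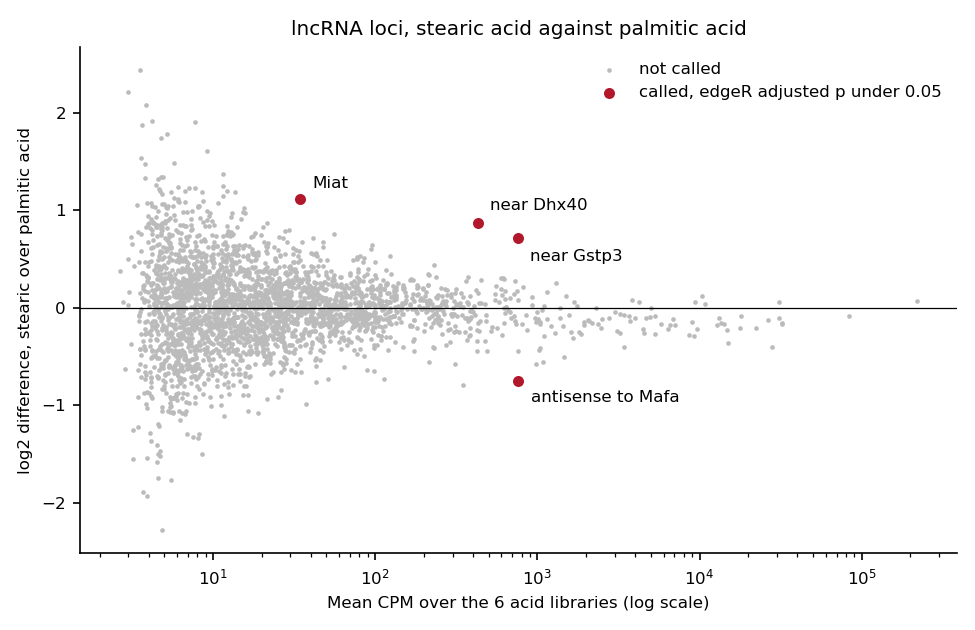
Log2 difference, stearic over palmitic acid, of 2834 lncRNA loci against their mean CPM over the 6 acid libraries (log axis), with the 4 called loci in red. The spread is widest at low CPM, 3 called loci lie above the line at 0 and 1 below it.

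Miat (XLOC_116951, chr5:112213228-112229395, minus strand, 9 assembled transcripts) had 48.9, 53.8 and 38.7 CPM in the stearic acid libraries, against 23.8, 21.8 and 18.8 CPM in the palmitic acid libraries. The control libraries had 22.1, 10.8 and 13.5 CPM. All 3 stearic acid values were above all others, and the palmitic acid and control values overlapped. Miat averaged 47.2 ± 7.71 CPM with stearic acid and 21.5 ± 2.505 CPM with palmitic acid (SD, n = 3 each), 2.18-fold higher with stearic acid (95% interval 1.58 to 2.998; log2 difference 1.12, SE 0.22, edgeR adjusted p = 0.0417). Without stearic acid replicate 2 the log2 difference was 1.02 and the edgeR adjusted p 0.185. The difference lay mostly in a 3-exon transcript, TCONS_00203906, at 36.4 ± 9.91 CPM with stearic acid and 17.7 ± 3.10 CPM with palmitic acid. It made up 76.9% ± 12.3 of the locus with stearic acid and 83.5% ± 18.9 with palmitic acid (SD, n = 3 each). In control it had 10.7, 0 and 0.912 CPM, or 18.3% ± 26.1 of the locus, so its share there is poorly known. The transcript by itself was not called between the acids (edgeR adjusted p = 0.991). The 7-exon transcript TCONS_00203907 had 14.7 CPM in stearic acid replicate 1 and 0 in the other 2, and 5.85 CPM in palmitic acid replicate 1 and 0 in the other 2.

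The locus near Dhx40 (XLOC_021670, chr11:86811658-86816394, plus strand) is a 2-exon transcript, TCONS_00038546, that starts 3.91 kb from the start of Dhx40, the gene of an RNA helicase. It had 578, 574 and 510.2 CPM in the stearic acid libraries, against 320.4, 284 and 304 CPM in the palmitic acid libraries and 119, 153 and 132 CPM in control. The 3 groups did not overlap. It was 1.83-fold higher with stearic acid than with palmitic acid (1.50 to 2.23; log2 difference 0.87, SE 0.14, edgeR adjusted p = 0.00902), the smallest adjusted p of the comparison.

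The locus near Gstp3 (XLOC_078327, chr19:4061040-4069495, plus strand, 3 transcripts) starts 1.47 kb from the start of Gstp3, a glutathione transferase gene. It had 996, 913 and 907 CPM with stearic acid, against 522, 557 and 636 CPM with palmitic acid and 283, 278 and 278 CPM in control. Again the 3 groups did not overlap. The log2 difference between the acids was 0.72 (SE 0.13, 1.64-fold, 95% interval 1.35 to 1.99, edgeR adjusted p = 0.0293). Its transcripts could not be ranked between the acids: TCONS_00128285 held 72.7% ± 13.96 of the locus with stearic acid and 74.7% ± 23.9 with palmitic acid (SD, n = 3 each), and TCONS_00128283 ranged from 10.4 to 325 CPM among the acid libraries.

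The locus antisense to Mafa (XLOC_053651, chr15:75745489-75746963, plus strand, TCONS_00088788) lies with 99.9% of its length inside Mafa, which encodes an activator of the insulin genes in mature β cells. It had 571, 640 and 487 CPM with stearic acid, against 923, 968 and 971 CPM with palmitic acid and 2434, 2606 and 2372 CPM in control. The 3 groups did not overlap, with stearic acid lowest. It was 1.69-fold lower with stearic acid than with palmitic acid (1.38 to 2.06; log2 difference -0.75, SE 0.14, edgeR adjusted p = 0.0293). Whether the strand kept by the directional kit was used in counting is not stated. If it was not, reads from the sense and antisense strands of Mafa cannot be told apart, and the same holds for every antisense locus named. In bulk RNA, a smaller share of cells with the transcript and less of it per cell cannot be told apart either.

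Levels against control, in a fit of all 9 libraries, are set side by side, since both use the same 3 control libraries. Of the 2834 loci, 364 were called with stearic acid (12.8%, of which 6.95% of the loci higher and 5.89% lower) and 172 with palmitic acid (6.07%, of which 4.16% higher and 1.91% lower). These loci had passed the filter on low counts in the acid libraries alone. Loci with counts mainly in control were thus left out, so the shares higher and lower cannot be weighed against each other. The locus near Dhx40 had log2 differences from control of 2.03 with stearic acid and 1.17 with palmitic acid. The locus near Gstp3 had 1.74 with stearic acid and 1.04 with palmitic acid, and that antisense to Mafa -2.14 with stearic acid and -1.36 with palmitic acid. These 6 values each had an edgeR adjusted p of 7.36e-06 or less. Miat had 1.60 with stearic acid (edgeR adjusted p = 0.000252) and 0.49 with palmitic acid (edgeR adjusted p = 0.328).

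The 4 calls did not all hold when a single library was left out, which also leaves fewer libraries to compare. In edgeR fits without stearic acid replicate 1, or without any 1 of the 3 palmitic acid libraries, 0 loci were called, with 176 to 216 loci at an unadjusted p under 0.05. Without stearic acid replicate 3 the locus near Dhx40 was called alone, and without stearic acid replicate 2 the loci near Dhx40, near Gstp3 and antisense to Mafa were called together with Igf2os. With all 6 libraries, the Wald test of DESeq2 also called 4 loci. In 14 other fits the log2 differences were 1.02 to 1.25 for Miat, 0.82 to 0.95 near Dhx40, 0.63 to 0.80 near Gstp3 and -0.85 to -0.66 antisense to Mafa. These fits reuse the same libraries, and the acids did not overlap at the 4 loci. That the sign held in each fit is therefore no independent support.

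**Figure D2:**
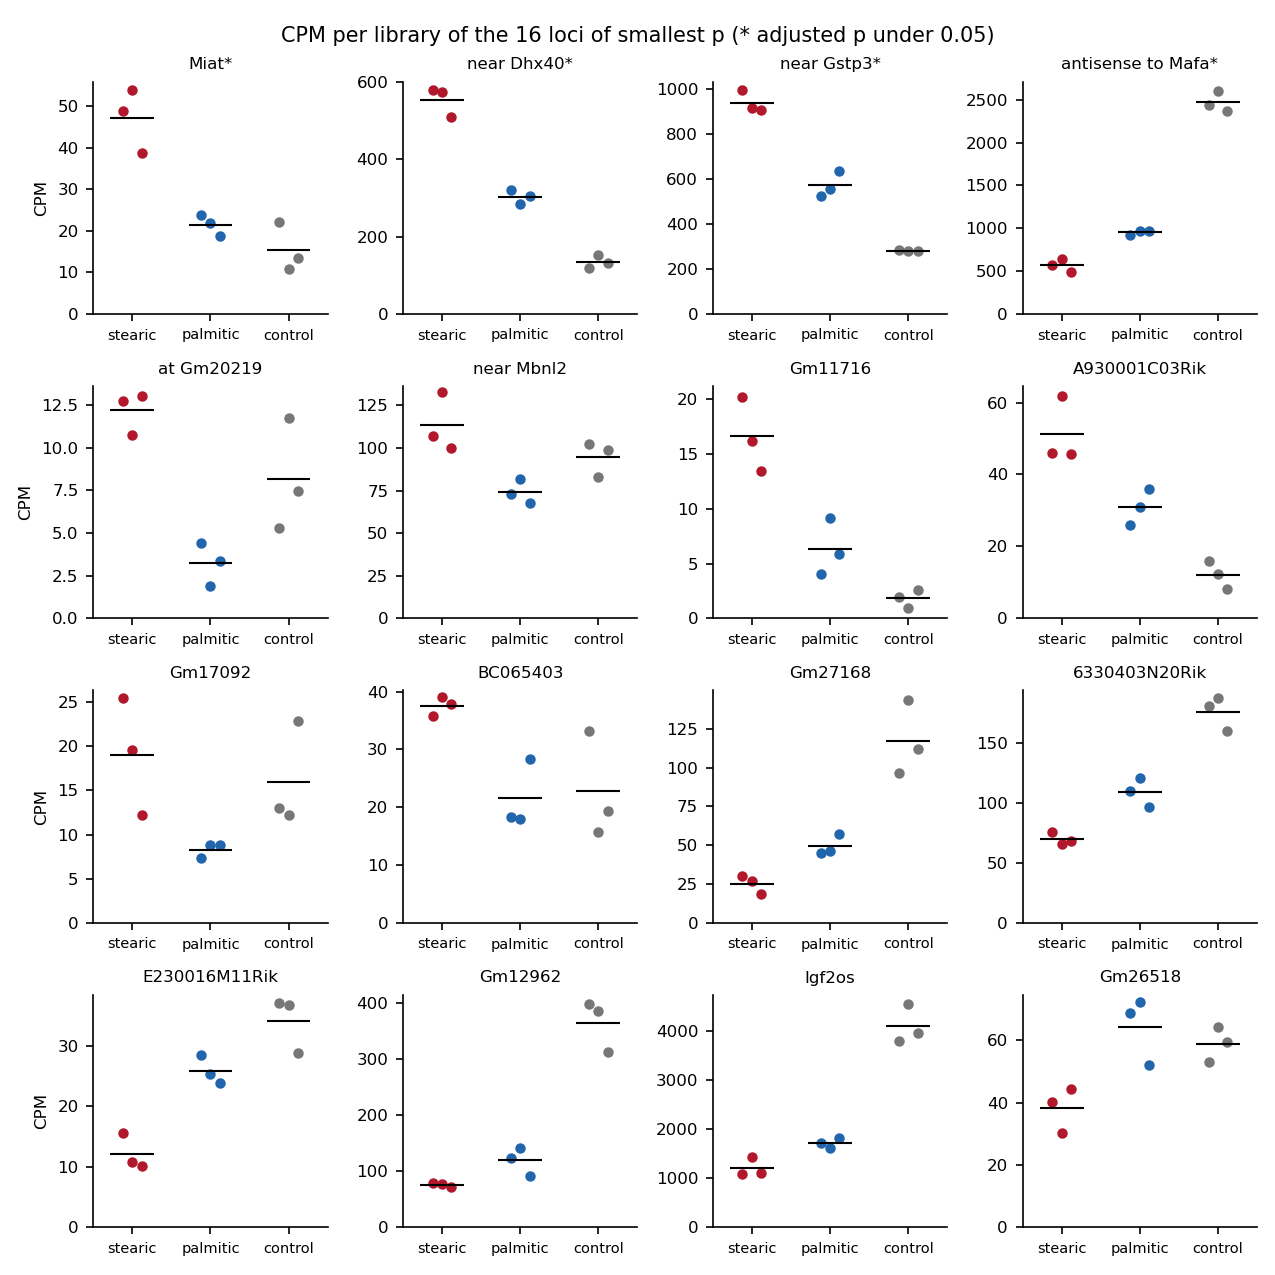
CPM per library (points) and group mean (line) with stearic acid, palmitic acid and in control, for the 4 called loci (asterisks) and the 12 uncalled loci of smallest p, 6 in each direction. In every panel the 3 stearic acid points lie apart from the 3 palmitic acid points, which is how such loci come to have a small p.

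Below the calls, the 6 loci of smallest p with lower values under stearic acid included Igf2os, which overlaps the imprinted growth factor gene Igf2 on the opposite strand and lies 8.30 kb from Ins2, an insulin gene. Igf2os (XLOC_134310, chr7:142658897-142670356) had 1092, 1433 and 1101 CPM with stearic acid, against 1725, 1611 and 1814 CPM with palmitic acid and 3789, 4560 and 3967 CPM in control. The 3 groups did not overlap. The log2 difference between the acids was -0.51 (SE 0.14, edgeR adjusted p = 0.377), or -0.65 without stearic acid replicate 2 (edgeR adjusted p = 0.00108). Gm27168 (XLOC_144632, chr8:86919424-86922681), an intergenic lncRNA, had 29.9, 27.1 and 18.8 CPM with stearic acid, against 44.9, 46.2 and 57.6 CPM with palmitic acid and 96.5, 143 and 112 CPM in control. Its log2 difference of -0.98 (95% interval -1.45 to -0.51) had the smallest adjusted p of the loci not called, 0.161 by edgeR. Gm27168 was called without the filter on low counts (log2 difference -1.01, edgeR adjusted p = 0.0152). That fit also called a locus near Zfp36l1 whose only counts in the acid libraries were 36.2 in palmitic acid replicate 2. A call without the filter can thus rest on a single library. E230016M11Rik, which starts 5.45 kb from the stress-response gene Gadd45a, had 15.5, 10.8 and 10.2 CPM with stearic acid, against 28.5, 25.3 and 23.8 CPM with palmitic acid. Its log2 difference was -1.08 and its edgeR adjusted p 0.377. The remaining 3 were Gm12962 (log2 difference -0.65), 6330403N20Rik, antisense to the cytokinesis gene Prc1 (-0.64) and Gm26518, antisense to the RNA-binding gene Pcbp2 (-0.73), with edgeR adjusted p of 0.329 to 0.377.

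Of the 6 loci of smallest p with higher values under stearic acid, the first was a locus at Gm20219 (XLOC_067430, chr17:56551416-56554504). It had 12.7, 10.8 and 13.0 CPM with stearic acid, against 4.39, 1.92 and 3.34 CPM with palmitic acid. The control libraries had 5.29, 11.7 and 7.47 CPM, above palmitic acid and overlapping stearic acid. Its log2 difference of 1.91 had a 95% interval of 0.90 to 2.92 and an edgeR adjusted p of 0.319. A locus near Mbnl2, a splicing regulator gene, had 107, 133 and 99.8 CPM with stearic acid, against 72.8, 81.7 and 67.5 CPM with palmitic acid and 102, 83.3 and 98.6 CPM in control. Its log2 difference was 0.61 (edgeR adjusted p = 0.377). Gm11716, antisense to the phosphatidylinositol transfer gene Pitpnc1, had 20.2, 16.1 and 13.5 CPM with stearic acid, against 4.02, 9.19 and 5.85 CPM with palmitic acid and 1.92, 0.978 and 2.62 CPM in control (log2 difference 1.38, edgeR adjusted p = 0.421). The other 3 had an edgeR adjusted p of 0.442: A930001C03Rik, antisense to Rhod and Syt12 (log2 difference 0.72), Gm17092, antisense to the RNA-binding gene Hnrnpd (1.19), and BC065403, antisense to Zfp280d (0.80).

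How far the acids could differ without being called was set by level. The 95% interval of the difference lay inside 2-fold in either direction for 1506 of 2834 loci (53.1%) and inside 1.5-fold for 657 (23.2%). With loci cut by level into 4 bins of 708 or 709, it lay inside 2-fold for 0 of 709 in the lowest bin (2.68 to 7.61 CPM), where the interval reached a median of 2.27-fold to either side of the estimate. In the next bin it reached 1.76-fold and lay inside 2-fold for 30.8% of the loci. In the highest bin, above 47.9 CPM, it reached 1.27-fold and lay inside 2-fold for 697 of 709 loci (98.3%). Called loci numbered 0, 0, 1 and 3 in the bins from low to high, so the intervals say least about loci of low level.

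Among the most abundant loci the differences were small and mostly negative. The 10 loci with the most counts had log2 differences of -0.40 to 0.07, all with a 95% interval inside 2-fold, and 0 were called. The locus over Igkv13-57-2 had 155905, 311271 and 207630 CPM with stearic acid, against 213333, 231209 and 199990 CPM with palmitic acid. The groups overlapped, and the log2 difference of 0.07 turned to -0.24 without stearic acid replicate 2 (edgeR adjusted p = 0.487). Its share of the counts was 22.7% ± 6.70 with stearic acid and 20.8% ± 1.42 with palmitic acid (SD, n = 3 each, exact two-sided permutation test, p = 0.9, where 0.1 is the smallest p possible). D230017M19Rik (XLOC_000624), antisense to the melanosome gene Mreg and the peroxisomal reductase gene Pecr, had the largest difference of these 10, with 20077, 22818 and 29996 CPM with stearic acid, against 33127, 34465 and 28650.0 CPM with palmitic acid. The groups overlapped, and its log2 difference was -0.40 (-0.69 to -0.12, edgeR adjusted p = 0.495). A separate locus of the same name, XLOC_002656, was called only without the filter on low counts (log2 difference -0.58, edgeR adjusted p = 0.0337). Gm13710 and XLOC_013315 had log2 differences of -0.17 and -0.16 and nearly the same CPM in every acid library, and whether they share reads was not tested. Of the 84 loci with a mean of 1000 CPM or more, a level chosen after the values were seen, 70 had a negative difference, with a median log2 of -0.15. Scaled by library size alone, 61 of the 84 were negative with a median of -0.07, where the median of all loci was 0.09.

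Classes of lncRNA took like shares of the counts with each acid. Intergenic loci held 78.5% ± 0.476 with stearic acid and 78.5% ± 0.494 with palmitic acid, antisense loci 12.01% ± 1.06 and 11.96% ± 0.209, and intronic loci 9.51% ± 0.647 and 9.56% ± 0.578, in the same order of acids (SD, n = 3 each). The exact two-sided permutation p was 1.0, 1.0 and 0.9. Of the called loci 3 were intergenic and 1 antisense, and of the 2834 tested 1704 were intergenic, 972 antisense and 158 intronic, so the 4 calls show nothing about class.

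Loci at β-cell genes were examined because loss of β-cell identity is a known response to fatty acid load. Of 21 tested loci within 10 kb of or overlapping these genes, 0 were called higher, 1 lower (antisense to Mafa) and 20 not called, where 0.0353% of all loci were called lower. Their median log2 difference was -0.07, against 0.01 for all loci, with 15 negative and 6 positive. For 17 of the 21 the interval lay inside 2-fold. The most abundant, antisense to the prohormone convertase gene Pcsk2 (XLOC_086087), had 3428, 3257 and 2855 CPM with stearic acid, against 3033, 3320 and 3589 CPM with palmitic acid. These overlapped, and the log2 difference was -0.06 (-0.32 to 0.20). The locus antisense to Slc30a8, the gene of the zinc transporter of insulin granules, averaged 2968 ± 377 CPM with stearic acid and 3062 ± 224 CPM with palmitic acid (-0.04, -0.31 to 0.23). Pcsk2os1, Pcsk2os2, Plut beside Pdx1 and Pax6os1 had log2 differences of -0.11, -0.05, -0.24 and -0.08, with edgeR adjusted p of 0.727 to 0.950. The whole list summed to 10853 to 11386 CPM with stearic acid, 12357 to 12692 CPM with palmitic acid and 17400 to 17637 CPM in control, ranges that did not overlap, and these sums include Igf2os and the locus antisense to Mafa.

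**Figure D3:**
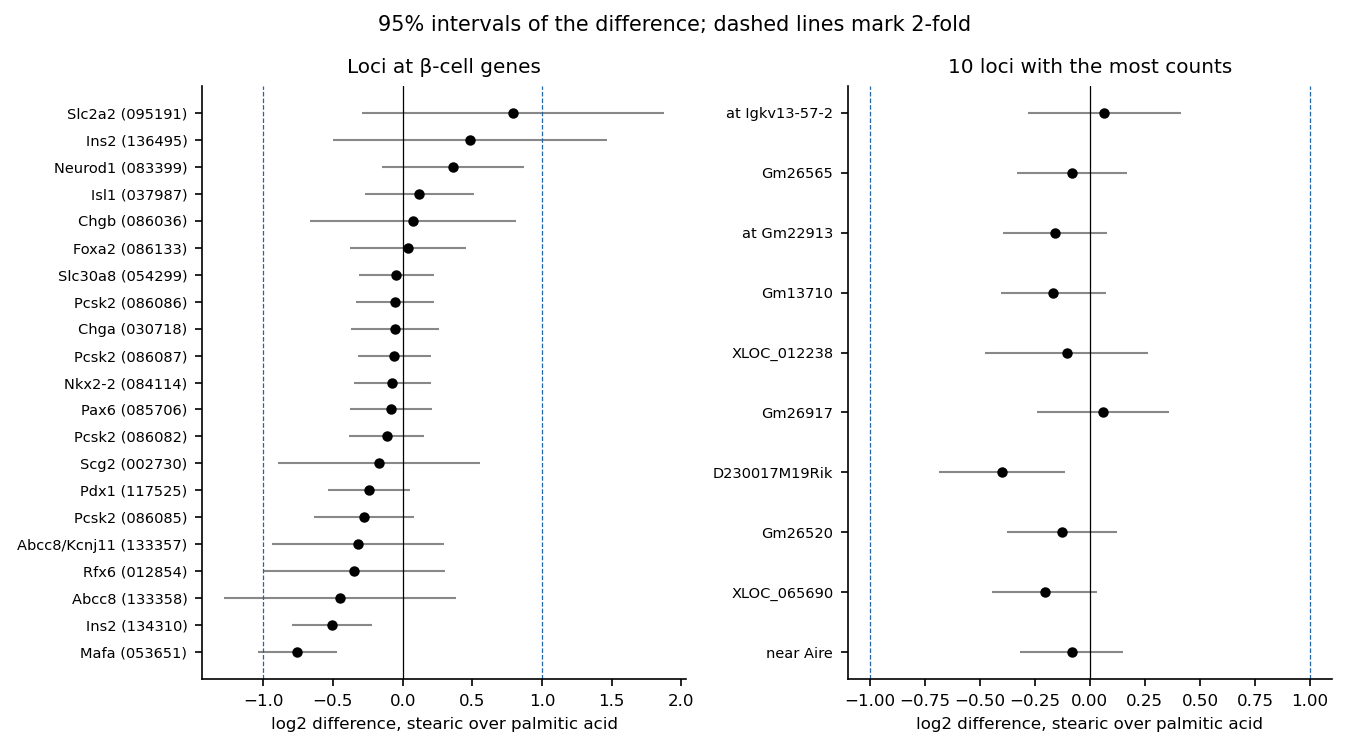
Log2 difference, stearic over palmitic acid (points), with 95% intervals (bars), for the 21 tested loci at β-cell genes, labelled by gene and locus number (left), and for the 10 loci with the most counts (right). The interval lies inside the dashed 2-fold lines for 17 of the 21 and for all 10.

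For the enzymes that handle the acids themselves, 0 tested loci were called in either direction, where 0.141% of all loci were called. A count of 0 thus says little about lists this small, here and in the lists below. Of 5 loci at genes of desaturation, elongation and esterification, 4 are antisense to stearoyl-CoA desaturase genes, which act on both acids. XLOC_079461, antisense to Scd2 and Scd3, had 266, 273 and 232 CPM with stearic acid, against 252, 258 and 279 CPM with palmitic acid. The groups overlapped, and the log2 difference was -0.04 (-0.33 to 0.26). The list's median was -0.11. Loci at ceramide synthesis genes, which take palmitic acid into the sphingoid base (5 tested, median -0.03), included Gm26764 antisense to Sptlc2, a subunit of the enzyme of that step, at 55.3 ± 7.77 CPM with stearic acid and 59.7 ± 4.13 CPM with palmitic acid. The locus antisense to the sphingomyelin synthase gene Sgms2 had 25.6 ± 4.46 CPM with stearic acid and 16.9 ± 4.48 CPM with palmitic acid (log2 difference 0.59, unadjusted p = 0.0512 and adjusted p = 0.655 by edgeR). The locus tested at fatty acid oxidation genes, 1300002E11Rik near the peroxisomal enzyme gene Ehhadh, had 82.8, 81.4 and 99.5 CPM with stearic acid, against 64.0, 80.4 and 61.0 CPM with palmitic acid. These did not overlap, and the edgeR adjusted p was 0.655. The 3 loci at sterol synthesis genes had a median of -0.06.

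Loci at endoplasmic reticulum stress genes were all on the positive side. Of 8 tested, 0 were called (0.141% of all loci were), 8 had a positive log2 difference and the median was 0.27, against 0.01 for all loci. A locus near Chac1, a glutathione-degrading enzyme gene of the unfolded protein response, had the largest difference, 8.42 CPM with stearic acid and 3.03 CPM with palmitic acid on average (log2 difference 1.48, interval 0.15 to 2.82, edgeR adjusted p = 0.624). The most abundant, antisense to Atf4, a transcription factor of that response, and to its neighbours, had 173, 199 and 168 CPM with stearic acid, against 126, 176 and 142 CPM with palmitic acid. These overlapped (log2 difference 0.28, edgeR adjusted p = 0.716). Summed, the list lay at 439 to 479 CPM with stearic acid, 372 to 418 CPM with palmitic acid and 361 to 383 CPM in control. Of the 8 intervals, 5 lay inside 2-fold, where 53.1% of all loci did.

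Of 10 loci at apoptosis and p53 genes, 0 were called (0.141% of all loci were), 7 were negative and the median was -0.28. The largest was E230016M11Rik, described above, and the most abundant, antisense to Ftl1 near Bax, had 646, 1027 and 713 CPM with stearic acid, against 571, 676 and 717 CPM with palmitic acid. Of 5 loci at inflammatory genes, 0 were called and the median was 0.11. Gm10552, antisense to the immune chromatin reader gene Sp140, had 192, 208 and 231 CPM with stearic acid, against 206, 212 and 219 CPM with palmitic acid and 102 ± 11.1 CPM in control. The acids overlapped, and the interval of their log2 difference was -0.31 to 0.29. Of 7 loci at cell cycle genes, 0 were called, the median was -0.06 and all 7 intervals lay inside 2-fold. Macrophage genes had 2 tested loci, with sums of 73.4 to 227 CPM with stearic acid and 147 to 206 CPM with palmitic acid. α-cell genes had 2 tested loci, δ-cell genes 1 and acinar genes 1, and 0 of these were called.

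**Figure D4:**
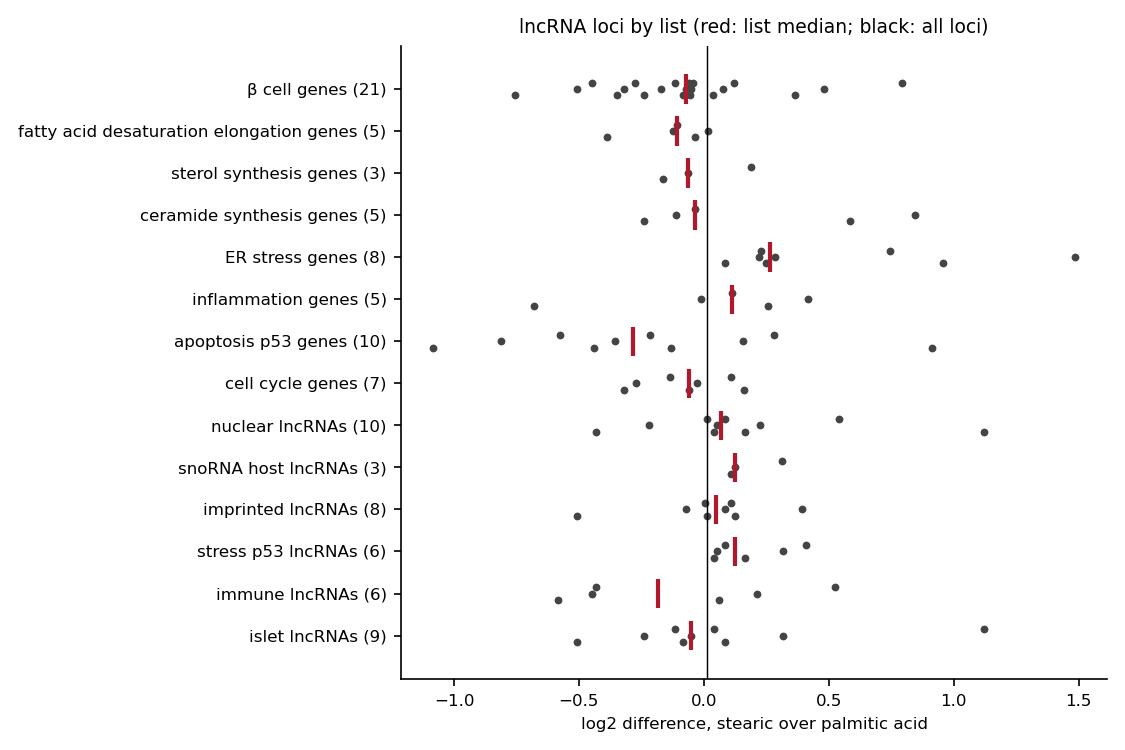
Log2 difference, stearic over palmitic acid, of each tested locus (points) in the 14 lists with at least 3 tested loci (number in brackets), with the list's median in red and the median of all loci as a black line. The 8 loci at endoplasmic reticulum stress genes lie right of the line and 15 of the 21 at β-cell genes lie below 0.

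Among the listed lncRNAs Miat was the only locus called. Of 10 nuclear lncRNA loci, 1 was called higher (Miat), where 0.106% of all loci were, 0 lower, and the median was 0.07. Malat1, an abundant lncRNA of nuclear speckles, had 11814, 8908 and 12083 CPM with stearic acid, against 10777, 10234 and 10893 CPM with palmitic acid. These overlapped, with an interval of -0.23 to 0.31. Neat1, the scaffold of paraspeckles, averaged 1208 ± 260 CPM with stearic acid and 1077 ± 204 CPM with palmitic acid (0.17, -0.17 to 0.50). Of 6 stress and p53 lncRNAs, 0 were called and 6 were positive, with a median of 0.13. Pvt1, next to the oncogene Myc, had 389.8, 404 and 449 CPM with stearic acid, against 334, 349 and 316 CPM with palmitic acid. The groups did not overlap, and its log2 difference was 0.32 (0.03 to 0.60, edgeR adjusted p = 0.625). Trp53cor1, a p53 target also called lincRNA-p21, had 38.1, 32.3 and 31.4 CPM with stearic acid, against 26.3, 26.4 and 23.8 CPM with palmitic acid (0.41, edgeR adjusted p = 0.685). Of 8 imprinted lncRNA loci, 0 were called (median 0.05). Airn, which silences Igf2r on the paternal chromosome, had 107, 158 and 131 CPM with stearic acid, against 99.3, 107 and 94.0 CPM with palmitic acid (0.39, edgeR adjusted p = 0.624). Of 6 immune lncRNA loci, 0 were called (median -0.19). Dleu2, host of a microRNA cluster, had 496, 293 and 458 CPM with stearic acid, against 554, 575 and 576 CPM with palmitic acid (-0.45, edgeR adjusted p = 0.516), or -0.25 without stearic acid replicate 2. The 3 snoRNA host loci had a median of 0.12, and the 9 islet lncRNAs a median of -0.05 with 1 call, Miat.

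Single transcripts gave another picture from their loci. Of 3904 transcripts tested with edgeR, 0 were called (0%), with 170 at an unadjusted p under 0.05 (4.35%). The biological coefficient of variation was 0.5005 over transcripts and 0.201 over loci. The authors' deposited table of stearic against palmitic acid lists 17 transcripts, 7 higher and 10 lower, with absolute log2 changes of 1.02 to 2.75 there. They lie at 16 loci of 2 to 21 transcripts, and of these loci 0 were called, 4 had an unadjusted p under 0.05 by edgeR and 15 had an interval inside 2-fold. Here 12 of the 17 transcripts were tested and 0 called. All 12 had an unadjusted p under 0.05 by edgeR. The authors' list was drawn from the same counts (102 of 102 values equal), so these p-values are no independent support for it.

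The Pvt1 transcript TCONS_00088523 has the largest absolute change in the authors' deposited table, a log2 of -2.75. It had 0 counts in all 3 stearic acid libraries, against 40.3, 7.47 and 25.04 CPM with palmitic acid and 51.1, 12.9 and 13.0 CPM in control. With 3 counts in total put in place of these 0 values, TCONS_00088523 was 49.1-fold lower with stearic acid. That value covers counting error only, and the palmitic acid values behind it ranged from 7.47 to 40.3 CPM. The transcript had an edgeR adjusted p of 0.827. Another Pvt1 transcript, TCONS_00088503, had 0, 27.5 and 10.9 CPM with stearic acid, against 0, 0 and 26.7 CPM with palmitic acid. A value of 0 in a single library thus occurred with either acid at this locus. The Pvt1 locus of 21 transcripts was on the positive side, at 414 ± 31.2 CPM with stearic acid and 333 ± 16.7 CPM with palmitic acid. The 7 transcripts of 1810008I18Rik (XLOC_133517, chr7:65802768-65815366) took unequal parts of their locus. TCONS_00230836 had 178, 199.7 and 175 CPM with stearic acid, against 86.0, 109 and 61.4 CPM with palmitic acid, or 69.2% ± 1.87 and 44.2% ± 14.8 of the locus in that order. TCONS_00230830 averaged 15.7 ± 3.89 CPM with stearic acid and 40.9 ± 11.8 CPM with palmitic acid. The whole locus had 266 ± 13.2 CPM with stearic acid and 196 ± 13.0 CPM with palmitic acid (log2 difference 0.44, unadjusted p = 0.00586 and adjusted p = 0.467 by edgeR).

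TCONS_00077866, the lncRNA that the series title links to stearic acid and to inflammation of β cells, lies in an intergenic locus of 7 transcripts (XLOC_045889, chr14:72981787-73001540, plus strand). It had 14.4, 23.2 and 15.2 CPM with stearic acid, against 4.19, 0 and 0 CPM with palmitic acid and 0 in all 3 control libraries. Every stearic acid library was above every palmitic acid library. It made up 27.6% ± 11.9 of its locus with stearic acid and 2.51% ± 4.35 with palmitic acid. Its log2 difference by edgeR was 3.63 (SE 1.21, unadjusted p = 0.0222, adjusted p = 0.991). Its whole locus had 76.2, 56.5 and 66.9 CPM with stearic acid, against 55.6, 50.2 and 63.5 CPM with palmitic acid and 33.7, 29.3 and 35.9 CPM in control. The acids overlapped there, and the log2 difference of the locus was 0.25 (-0.13 to 0.62, edgeR adjusted p = 0.803). A neighbour within the locus, TCONS_00077862, which ends at the same base, had 9.77, 14.8 and 0 CPM with stearic acid, against 7.26, 6.61 and 50.1 CPM with palmitic acid.

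**Figure D5:**
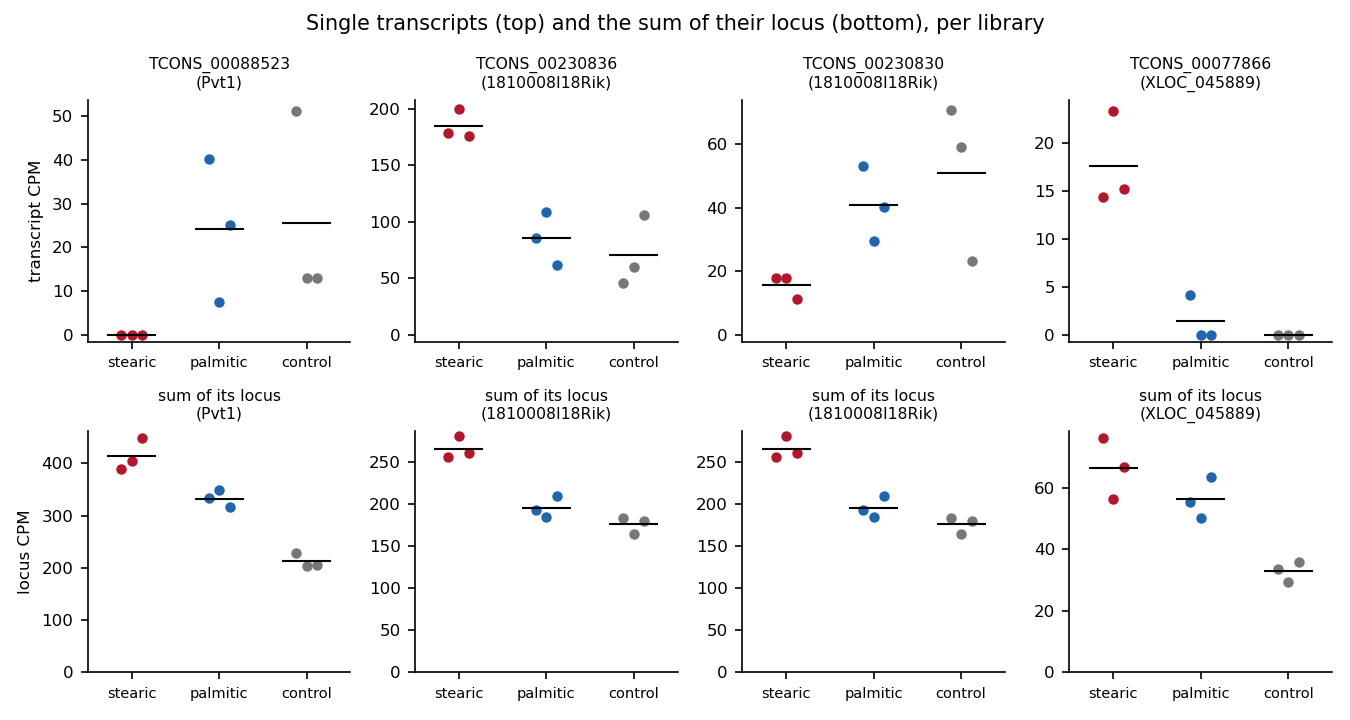
CPM per library (points) and group mean (line) of 4 single transcripts (top) and of the sum of their loci (bottom) with stearic acid, palmitic acid and in control. The Pvt1 transcript is at 0 in all 3 stearic acid libraries and the Pvt1 locus is not lower, and TCONS_00077866 separates the acids where its locus does not.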

How the data were processed

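In all, 9 libraries of β-TC6 cells were available, and the stearic acid and palmitic acid libraries, 3 of each, entered the comparison. The deposited table gives expected counts (estimated reads) and FPKM per lncRNA transcript and library, made by the authors. Per the submitters' processing notes the tools were bcl2fastq 2.17.1.14, Trimmomatic 0.30, HISAT2 2.0.1, HTSeq 0.6.1 and DESeq with the mm10 build, and the tool behind the expected counts is not stated. FPKM served no test, since it is not a count. The authors' deposited table of stearic against palmitic acid gives a log2 fold change, its error, a p-value and an adjusted p-value for the transcripts past their threshold. The colour-code file, the overlap table and the authors' tables against control were not used.

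Expected counts were summed per locus and rounded to whole numbers. Before this, 77.7% of all values were exactly whole with zeros included, and 51.8% of the values above 0. Loci were filtered with filterByExpr, scaled with TMM and tested two-sided with edgeR 4.0.16 (quasi-likelihood, R 4.3.3), with Benjamini-Hochberg adjustment over 2834 loci. Intervals of 95% came from the Wald standard error. Levels against control came from a fit of all 9 libraries over the same loci, which were filtered on the acid libraries. Alternatives used DESeq2 1.42.0 and limma 3.58.1. The fit was tested on simulated counts with 200 of 2834 loci changed. It called 56% of the 2-fold changes, 92% of the 4-fold changes and 8 unchanged loci. The simulated loci followed the fitted trend of spread by level, and no simulated library stood apart as stearic acid replicate 2 did. Far more loci were changed than were called in the data, so these rates may not hold there. Loci were tied to coding genes they overlap or lie within 10 kb of in GENCODE mouse release 21.

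The text names every called locus, the uncalled loci of smallest p (6 in each direction), the 10 most abundant, the locus of TCONS_00077866, and up to 4 of highest level per list. Other list members that are named were chosen after their values were seen. The comparison, the gene lists and this rule were chosen with earlier results of these data known.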

Additional observations from a re-analysis of the deposited data

How the results depend on the processing

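The 6-library fit called 4 loci, 3 higher and 1 lower with stearic acid. Library size alone called 3 higher and 0 lower, no filter on low counts called 11 of 6997 loci (3 higher and 8 lower: the 4 loci, Gm27168, XLOC_012985, XLOC_002656, loci antisense to Parp16 and to Klrb1c, and loci near Zfp36l1 and Cox8b, of which the last 2 were outside the filtered set), an absolute log2 difference above 1 in addition left 1 higher and 0 lower (1 called), and an adjusted p under 0.01 also left 1 higher and 0 lower (1 called). Testing transcripts called 0 of 3904, with 170 at an unadjusted p under 0.05 by edgeR. Leaving out 1 library at a time called 0 to 4 loci, 0 to 2 higher and 0 to 2 lower. Deviations of each locus' log2 CPM from its group mean had correlations of -0.053, -0.045 and -0.035 between same-numbered libraries of the 2 acids. For differently numbered libraries they were -0.018 to 0.062. With 3 libraries per group the deviations of a locus sum to 0 in each group, which limits what they show about pairing. A fit with the replicate block called 0 loci, 0 higher and 0 lower, with 186 at an unadjusted p under 0.05 by edgeR. DESeq2 size factors, the DESeq2 Wald test and a fit without the most abundant locus each called 4, and limma voom and the fit of all 9 libraries 3 each, both without Miat. Of 56 values for the called loci under these settings 27 missed the threshold, and the cause was not tested. Of the same values 0 changed sign, which is no independent support, since the loci were called from these libraries. Over all 1119 single-locus values, 65 changed sign, at 29 loci that were not called. Among them, without stearic acid replicate 2, were the locus over Igkv13-57-2 (-0.24), XLOC_012238 (0.11) and Gm26917 (-0.09). Of the values of uncalled loci 18 moved by more than 1 standard error, and 2 passed the threshold, Gm27168 without the filter and Igf2os without stearic acid replicate 2. Between 3 libraries and 3, low counts limit what can be seen, since no interval in the lowest bin of level lay inside 2-fold.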

Other observations

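XLOC_012985, chosen after its values were seen, had counts of 1017, 7 and 688 with stearic acid, against 1265, 1159 and 1024 with palmitic acid and 720, 486 and 1220 in control. The count of 7 is in stearic acid replicate 2. The log2 difference between the acids was -0.79 (95% interval -1.96 to 0.38, edgeR adjusted p = 0.801), and the edgeR adjusted p was 0.000501 without the filter on low counts. Which of these describes the locus was not tested.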
